A study of Juglans cathayensis with 6 samples.

Results

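The genes described here encode small heat shock proteins assigned to organelles or to the minor classes V and VI. There are 8 of them among 39234 assembled genes with expression values in the husk of Chinese walnut, *Juglans cathayensis*, the soft tissue around the nut. They were picked by identifier from the protein descriptions in the authors' table. By those descriptions 3 are chloroplastic, 1 is mitochondrial, 1 is peroxisomal, 2 are of class VI and 1 is of class V. The small heat shock proteins had been set apart as a group after their brown and white values were known, so the brown against white values of the 8 genes are given as a description and without p-values. The samples were 3 libraries of a brown variety and 3 of a white variety, named here for the recorded colour of their husk just after cutting, in a study of enzymatic browning. All 6 libraries carry a time label of 35 days, from an event the labels do not name, and the labels record no special kind of treatment and mention no heat. Colour and variety cannot be told apart, the labels do not say whether each library came from its own tree, and p-values therefore measure only the spread between these libraries, which may be technical.

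Small heat shock proteins are chaperones that work without ATP. They share an alpha-crystallin domain, assemble into oligomers and hold unfolding proteins in a state from which ATP-driven chaperones such as HSP70 and ClpB can refold them. Plants, unlike most other eukaryotes, send members of the family into chloroplasts, mitochondria, peroxisomes and the endoplasmic reticulum, while classes I to III act in the cytosol and nucleus. Many are nearly silent in unstressed leaves and are switched on by heat stress transcription factors, and some also accumulate during seed and fruit development. The file holds no sequences, so the genes are identified by assembly identifier and description only.

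All 8 genes carried the HSP20 domain in the authors' annotation, which 32 of the 39234 listed genes did, and all 8 were assigned to the KEGG pathway for protein processing in the endoplasmic reticulum. The GO term for response to heat was attached to 6 of the 8, the exceptions being both class VI genes. The terms for response to high light and to hydrogen peroxide were attached to the same 3 genes, 2 chloroplastic and the mitochondrial one. Some locations were not uniform across annotation sources. The chloroplastic-like gene TRINITY_DN1497_c0_g1 had the GO term for mitochondrion and not the one for chloroplast, and the mitochondrial gene had both. The peroxisomal gene TRINITY_DN11643_c0_g1 is an uncharacterized protein in the main annotation and takes its name from Swiss-Prot. It had GO terms for nucleus and membrane and none for peroxisome. Assembled lengths ran from 603 bases (class VI, TRINITY_DN10398_c0_g1) to 1095 bases (chloroplastic, TRINITY_DN3134_c0_g1).

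Values are TPM, a length-normalized relative abundance that keeps no read depth, so no counting error can be given. A positive log2 fold change means higher in brown husk. It was taken on log2(TPM + 1), which understates the change of low genes, and comes with the standard error of a limma fit over 37829 genes. A gene is called past the threshold when its Benjamini-Hochberg adjusted p over all these genes is under 0.05. The median gene had a log2 fold change of 0.19 on the deposited values, 0.05 after TMM scaling and -0.01 after quantile normalization, so that some values below are also given relative to the deposited median. White replicate 2 stood apart, with 28349 genes at 1 TPM or more against 33146 to 35240 in the other 5 libraries. All 8 genes passed the filter of at least 1 TPM in at least 3 libraries, but 3 did so through 1 group only, the class VI gene TRINITY_DN10398_c0_g1 through brown husk and the chloroplastic gene TRINITY_DN3134_c0_g1 and the class V gene through white husk.

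Of the 8 genes, 1 was past the threshold as higher in brown husk (class VI gene TRINITY_DN10398_c0_g1), where 3.83% of all tested genes were, and 1 as lower (TRINITY_DN1497_c0_g1), where 2.17% were. These counts describe values that were known when the genes were chosen, and nothing is read from them. In 4 genes every brown library was below every white one, a pattern seen in 8.85% of tested genes. In 1 every brown library was above every white one, as in 20.2% of tested genes. For the 3 genes that passed the filter through 1 group only, the filter itself fixed this separation. Nothing is read from these counts either. Their summed abundance was 51.8, 39.7 and 38.7 TPM in brown replicates 1, 2 and 3, against 147, 59.9 and 120.2 TPM in white replicates 1, 2 and 3. The sum was 43.4 ± 7.3 TPM in brown and 109 ± 44.6 TPM in white husk (SD, n = 3 each). Without the class V gene the sums were 42.9 ± 7.07 TPM in brown and 71.6 ± 13.6 TPM in white husk. The highest brown sum without that gene was 51.0 TPM and the lowest white sum 56.7 TPM, so the groups did not overlap. Most of the difference between these means lay in 1 gene, TRINITY_DN1497_c0_g1, with means of 15.0 TPM in brown and 41.6 TPM in white husk. The separation is therefore not a trait of the remaining genes as a set. In bulk husk fewer cells of a type and less RNA per cell cannot be told apart.

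**Figure D1:**
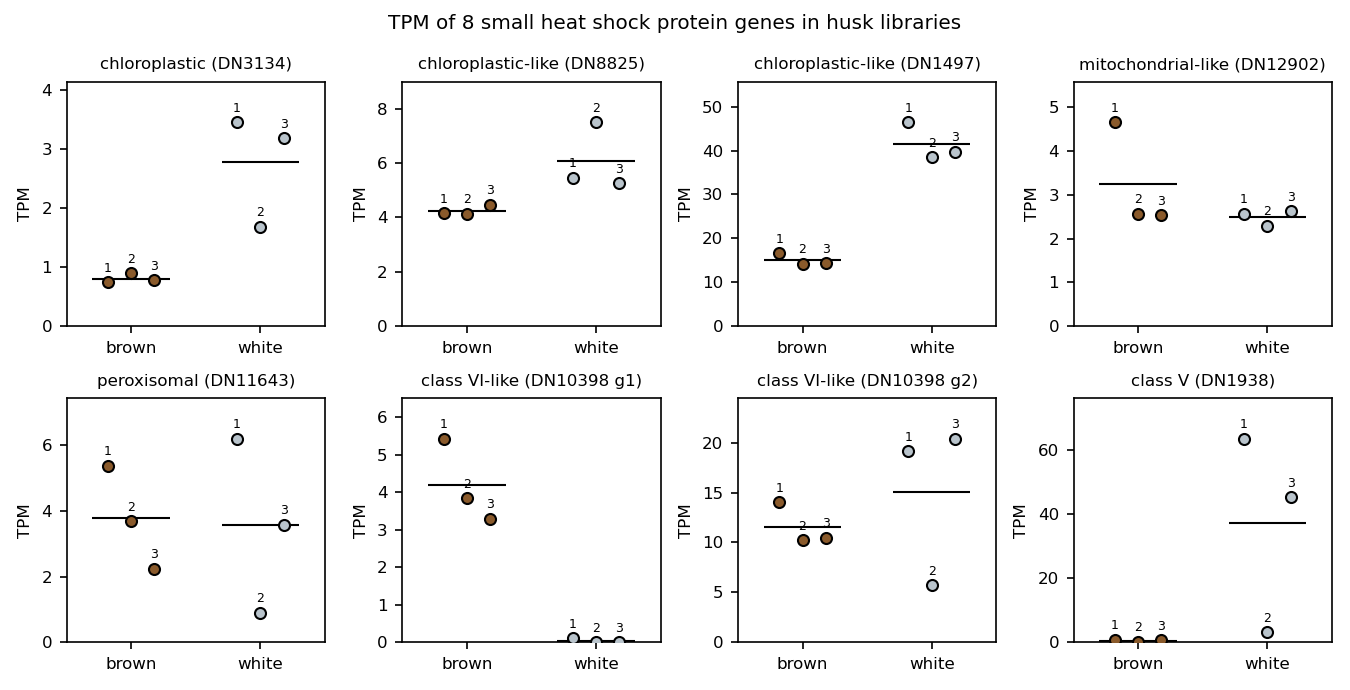
TPM of each of the 8 genes (y axis, linear, its own scale in each panel) in brown and white husk; each point is 1 library, labelled with its replicate number, and each horizontal line is the mean of 3 libraries. The 3 chloroplastic genes and the class V gene were lower in every brown library than in any white one, class VI gene DN10398 g1 was higher in every brown library, and white replicate 2 was the lowest white library in 6 of the 8 panels.

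In each of the 3 chloroplastic genes every brown library was below every white one, by a gap that was wide in 1 gene and small in another. HSP21, the plastid protein of this type in pea and Arabidopsis, associates with thylakoid membranes and protects photosystem II in heat-stressed leaves. The most abundant of all 8 genes, TRINITY_DN1497_c0_g1, had 16.6, 14.2 and 14.3 TPM in the brown libraries, against 46.5, 38.6 and 39.8 TPM in the white ones. Its replicates lay close together in both varieties and the groups were far apart. The means were 15.0 ± 1.37 TPM in brown and 41.6 ± 4.27 TPM in white husk (SD, n = 3 each), a level 2.77-fold lower in brown. Its log2 fold change was -1.41 ± 0.15 (SE), or -1.60 relative to the median gene, and stayed between -1.58 and -1.33 in the 15 alternative fits that included it. In 1 of these fits only the class VI genes were altered, by summing them, so its value could not move there.

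The second, TRINITY_DN3134_c0_g1, had the lowest mean of the 8 genes over all 6 libraries and was under 1 TPM in brown husk, at 0.74, 0.89 and 0.77 TPM. In white husk it had 3.45, 1.68 and 3.18 TPM, white replicate 2 being the low one, and the groups did not overlap. This gave a log2 fold change of -1.03 ± 0.33 (SE), and of -1.39 ± 0.26 under quantile normalization. The remaining chloroplastic gene, TRINITY_DN8825_c0_g1, had 4.16, 4.13 and 4.47 TPM in brown husk, against 5.46, 7.51 and 5.27 TPM in white husk. Here the gap between groups was small and white replicate 2 was the highest library. Its log2 fold change was -0.42 ± 0.24 (SE).

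Together the chloroplastic genes summed to 20.1 ± 1.25 TPM in brown and 50.5 ± 4.28 TPM in white husk (SD, n = 3 each), a 2.51-fold lower level in brown, or 2.58-fold without white replicate 2. The gene TRINITY_DN1497_c0_g1 supplied 77.2%, 73.8% and 73.2% of that sum in the brown libraries and 83.9%, 80.8% and 82.5% in the white ones. That gene had the GO term for mitochondrion and not the one for chloroplast, so most of the sum is chloroplastic by description only. Genes for photosystem and light-harvesting proteins, used here as a measure of green tissue, overlapped between the varieties in their sum. Taken gene by gene, they leaned lower in brown husk. Their median log2 fold change was -0.13, against 0.19 for all tested genes, and 31 of the 53 were negative. In 11 every brown library was below every white one, a pattern seen in 8.85% of all tested genes. In 5 every brown library was above, as in 20.2% of all tested genes. Whether the part of green tissue differed between the varieties was not tested in these genes. The 53 of them summed to 7181, 3856 and 6438 TPM in brown replicates 1, 2 and 3, against 5878, 7139 and 6641 TPM in white replicates 1, 2 and 3, and 1 was past the threshold. It was a photosystem I subunit A gene (TRINITY_DN15242_c2_g4), listed at 0 in the brown libraries and at 1.51, 1.55 and 3.09 TPM in the white ones. Its call was lost when any single library was left out, at limma adjusted p of 0.0526 to 0.122.

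The mitochondrial and peroxisomal genes were low in both varieties and their groups overlapped. The mitochondrial gene, TRINITY_DN12902_c0_g13, matches an Arabidopsis protein of 26.5 kDa. It had 4.66, 2.57 and 2.53 TPM in brown husk, against 2.57, 2.29 and 2.62 TPM in white husk. Only brown replicate 1 stood out, the other 5 libraries lying within 2.29 to 2.62 TPM. The log2 fold change was 0.25 ± 0.31 (SE), or 0.06 relative to the median gene, and it turned to -0.04 under quantile normalization. Its assembly cluster held 11 other genes, of which 10 had no protein name and 1 (TRINITY_DN12902_c0_g9) is MICRORCHIDIA 2-like, with 5.26, 3.94 and 4.59 TPM in brown husk, against 4.29, 2.67 and 4.21 TPM in white husk.

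The peroxisomal gene, TRINITY_DN11643_c0_g1, matches the 15.7 kDa protein that in Arabidopsis is imported into peroxisomes, the organelles of fatty acid beta-oxidation and photorespiration. It had 5.36, 3.68 and 2.24 TPM in brown husk, against 6.18, 0.9 and 3.57 TPM in white husk. Both varieties spanned a wide range, with white replicate 2 the lowest library of all. The log2 fold change was 0.21 ± 0.53 (SE) and its sign turned with the scaling, being -0.10 under quantile normalization, and with the libraries used, being -0.32 without white replicate 2. Its assembly held 7 transcripts, more than any other of the 8 genes. The deposited TPM is 1 value per gene, and how it was formed from the transcripts is not stated.

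Both class VI genes come from a single assembly cluster and are described as like the 21.7 kDa protein of Arabidopsis, which is assigned to the cytoplasm. The gene TRINITY_DN10398_c0_g1 had 5.43, 3.84 and 3.3 TPM in the brown libraries and was listed at 0.11, 0 and 0 TPM in the white ones. It was at or near 0 in every white library and above 3 TPM in every brown one. The log2 fold change was 2.30 ± 0.31 (SE), or 2.11 relative to the median gene. It ran from 2.02 to 5.04 over the 14 alternative fits that included it and depended on the pseudocount, so its size is not a measured fold.

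The other class VI gene, TRINITY_DN10398_c0_g2, had the highest mean of the 8 after TRINITY_DN1497_c0_g1 and the class V gene. It had 14.0, 10.2 and 10.5 TPM in brown husk, against 19.1, 5.72 and 20.4 TPM in white husk. White replicate 2 lay below all brown libraries and white replicates 1 and 3 above them. Its log2 fold change was -0.19 ± 0.44 (SE). It was -0.73 ± 0.17 without white replicate 2, and turned to 0.06 without white replicate 1 and 0.10 without white replicate 3.

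Summed over both genes, class VI abundance was 19.5, 14.1 and 13.8 TPM in brown husk, against 19.2, 5.72 and 20.4 TPM in white husk, and the groups overlapped. The sum gave a log2 fold change of 0.22 ± 0.44 (SE). The gene TRINITY_DN10398_c0_g1 made up 27.9%, 27.3% and 23.9% of the cluster's sum in brown replicates 1, 2 and 3, but 0.572%, 0% and 0% in white replicates 1, 2 and 3. The shares did not overlap between the varieties, while the totals did. Genes of 1 cluster can be copies or alleles of a single locus, reads shared between them can be split, and these cases cannot be told apart here. The remaining gene of the cluster, TRINITY_DN10398_c0_g3, has no protein name and had 0, 0.46 and 1.34 TPM in brown husk, against 2.46, 0.68 and 1.63 TPM in white husk.

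**Figure D2:**
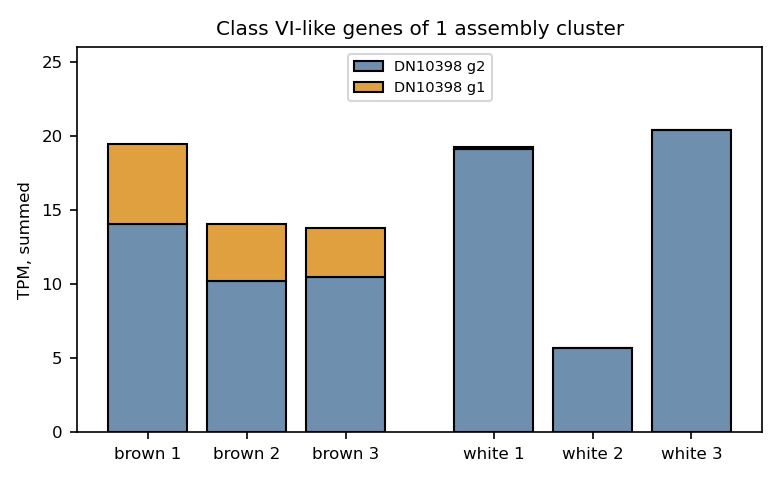
Stacked TPM of the class VI genes DN10398 g2 (lower part of each bar) and DN10398 g1 (upper part) in each library, brown on the left and white on the right, from 0. The bars of brown husk carry 23.9% to 27.9% of g1 and those of white husk 0% to 0.572%, while total heights run from 13.8 to 19.5 TPM in brown and from 5.72 to 20.4 TPM in white husk.

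The class V gene, TRINITY_DN1938_c0_g1, showed the widest range of the 8. It is described as a 15.4 kDa heat shock protein, a class assigned to the cytoplasm. It had 0.84, 0.21 and 0.61 TPM in the brown libraries, against 63.6, 3.27 and 45.4 TPM in the white ones. All brown libraries were under 1 TPM, and the white ones differed among themselves by 19.4-fold, with white replicate 2 the low one yet still above every brown library. The means were 0.553 ± 0.319 TPM in brown and 37.4 ± 30.9 TPM in white husk (SD, n = 3 each), a 67.6-fold lower level in brown, or 98.4-fold without white replicate 2. The log2 fold change was -3.93 ± 0.94 (SE), or -4.12 relative to the median gene. Without white replicate 2 it was -5.16 ± 0.28, and without white replicate 1 it was -3.20 ± 0.94. The gene made up 1.62%, 0.529% and 1.58% of the summed abundance of the 8 genes in brown replicates 1, 2 and 3, and 43.3%, 5.46% and 37.8% in white replicates 1, 2 and 3.

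**Figure D3:**
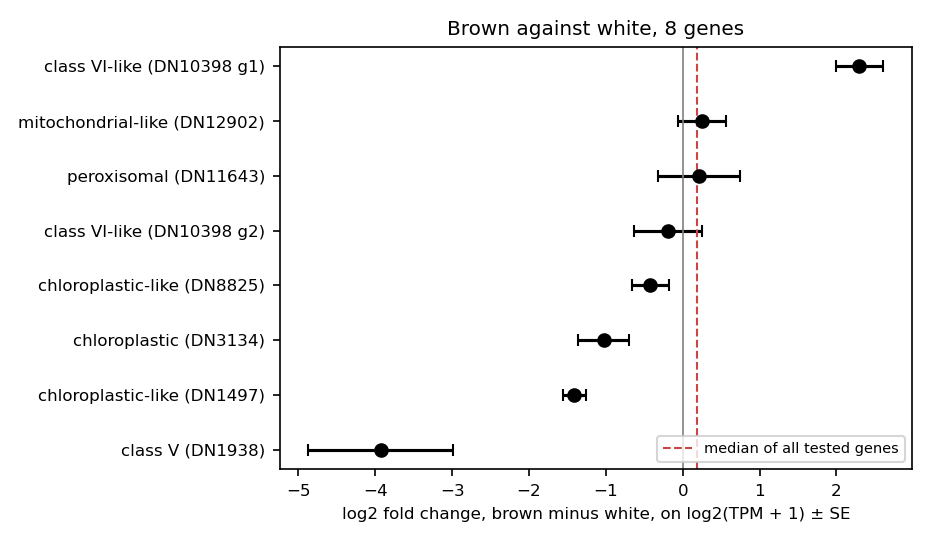
Log2 fold change of each gene (x axis, brown minus white, from log2 of TPM + 1) with its standard error from limma, sorted from high to low, and the median of all tested genes as a dashed line at 0.19. Values ran from 2.30 for class VI gene DN10398 g1 to -3.93 for the class V gene, and the mitochondrial, peroxisomal and second class VI genes lay within 1 standard error of the dashed line or of 0.

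Levels of the 8 genes can be ordered by TPM, which is per length. In brown husk the chloroplastic-like gene TRINITY_DN1497_c0_g1 was highest, followed by class VI gene TRINITY_DN10398_c0_g2 at 11.6 ± 2.13 TPM (SD, n = 3), and their ranges did not overlap. Then came TRINITY_DN8825_c0_g1, TRINITY_DN10398_c0_g1, the peroxisomal and the mitochondrial gene, with means of 4.25, 4.19, 3.76 and 3.25 TPM and overlapping ranges. The chloroplastic gene TRINITY_DN3134_c0_g1 and the class V gene were lowest, at 0.8 and 0.553 TPM, and their ranges also overlapped. In white husk the class V gene took the second place. There each gene's range overlapped with that of the next in order, from TRINITY_DN1497_c0_g1 down to the mitochondrial gene at 2.49 ± 0.178 TPM (SD, n = 3), and TRINITY_DN10398_c0_g1 alone stood below the rest.

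Some libraries were high or low for several of the 8 genes. White replicate 2 was the lowest white library for 6 of them, and for 60.6% of all tested genes. Brown replicate 1 was the highest brown library for 6 of them, and for 40.1% of all tested genes. Across the 6 libraries the log2(TPM + 1) of the class V gene and of the chloroplastic gene TRINITY_DN3134_c0_g1 had a Pearson r of 0.98, and TRINITY_DN3134_c0_g1 and TRINITY_DN1497_c0_g1 one of 0.93. The peroxisomal gene and class VI gene TRINITY_DN10398_c0_g2 had an r of 0.84. Class VI gene TRINITY_DN10398_c0_g1 had an r of -0.96 to TRINITY_DN1497_c0_g1 and of -0.82 to the class V gene, but of 0.25 to the peroxisomal gene and of -0.12 to the other class VI gene. These are descriptions over 6 libraries that share the variety contrast and the low white replicate 2.

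For each of the 8 genes the most similar genes were sought among about 11400 named genes with a mean of at least 5 TPM, by Pearson r of log2(TPM + 1) over the 6 libraries. Such r values are easily high, and between 0.0526% and 2.35% of candidates reached 0.95. Closest to the class V gene were an IQ-DOMAIN 1-like gene (TRINITY_DN10779_c0_g1, r = 0.997), of a calmodulin-binding family, and a heat stress transcription factor A-2e-like gene (TRINITY_DN14174_c3_g4, r = 0.997). The A-2e-like gene, of the factors that switch on heat shock genes, had 1.97, 1.59 and 1.63 TPM in brown husk, against 17.6, 3.1 and 13.6 TPM in white husk, so that it too was low in white replicate 2. Closest to TRINITY_DN3134_c0_g1 were a calcyclin-binding protein-like gene (TRINITY_DN13890_c0_g5, r = 0.997) and a cyclic nucleotide-gated ion channel gene (TRINITY_DN13751_c0_g1, r = 0.997). Closest to TRINITY_DN1497_c0_g1 were a cellulose synthase-like H1 gene (TRINITY_DN15934_c0_g1, r = 0.999) and a methyl-CpG-binding domain gene (TRINITY_DN12368_c0_g2, r = 0.998). For TRINITY_DN8825_c0_g1 they were an anaphase-promoting complex subunit gene (TRINITY_DN14665_c2_g2, r = 0.992) and that of the chloroplast RNA-binding protein CP29B (TRINITY_DN14616_c3_g5, r = 0.987).

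Closest to the mitochondrial gene were a DNA repair gene like ERCC-1 (TRINITY_DN12450_c3_g5, r = 0.969) and a class I small heat shock protein gene (TRINITY_DN12269_c0_g2, r = 0.965). The class I gene had 107 TPM in brown replicate 1 and between 0.44 and 1.59 TPM in the other 5 libraries, so this likeness rests on brown replicate 1. The peroxisomal gene was closest to a UBX domain gene (TRINITY_DN11606_c0_g5, r = 0.996) and a vacuolar sorting gene (TRINITY_DN14487_c0_g1, r = 0.992). Class VI gene TRINITY_DN10398_c0_g1 was closest to DNA polymerase eta (TRINITY_DN15891_c1_g1, r = 0.999) and a REVEILLE 7-like clock factor (TRINITY_DN14701_c2_g7, r = 0.998). The other class VI gene was closest to a Niemann-Pick C1-like gene (TRINITY_DN12687_c0_g4, r = 0.995) and a bZIP factor 44-like gene (TRINITY_DN14762_c1_g5, r = 0.995).

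The remaining small heat shock protein genes, mostly the cytosolic classes I to III, numbered 17, of which 16 were tested. Of these 5 fell and 2 rose in brown husk, against 2.17% and 3.83% of all tested genes, and their median log2 fold change was -0.55, against -0.30 for the 8 organelle and class V and VI genes and 0.19 for all tested genes. The whole family had been set apart on these values, so its counts too are a description and its genes are given without p-values. The 3 most abundant genes past the threshold were all lower. An 18.5 kDa class I gene (TRINITY_DN12897_c0_g1) had 60.1 ± 9.34 TPM in brown and 221 ± 80.4 TPM in white husk (SD, n = 3 each). A 17.1 kDa class II gene (TRINITY_DN13399_c0_g1) had 14.2 ± 1.27 TPM in brown and 68.5 ± 16.8 TPM in white husk. An 18.2 kDa class I gene (TRINITY_DN3737_c0_g1) had 21.3 ± 2.33 TPM in brown and 38.6 ± 2.82 TPM in white husk. The other genes past the threshold were picked out after their values were seen. A 17.3 kDa class I gene (TRINITY_DN16891_c0_g1) had 3.61 ± 0.988 TPM in brown and 15.2 ± 7.26 TPM in white husk. Another gene of that name (TRINITY_DN11566_c2_g15) had 2.57, 4.28 and 3.93 TPM in brown husk and 0, 0 and 0.19 TPM in white husk, and a 17.4 kDa class III gene (TRINITY_DN1236_c0_g1) had 6.25, 2.45 and 2.67 TPM in brown husk and was listed at 0 in the white libraries. These 2 genes that rose are assembled at 418 and 361 bases. Both passed the filter through brown husk only, so the filter itself fixed the separation of their groups, and nothing is read from their count. The count that fell was 2 without brown replicate 3 or white replicate 3, 3 without brown replicate 1, brown replicate 2 or white replicate 1, and 8 without white replicate 2. The count that rose was 0 without brown replicate 3 or white replicate 3 and 1 without white replicate 1.

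The remaining gene that fell, also singled out after its values were seen, is described as the 15.7 kDa peroxisomal heat shock protein in the main annotation yet is not among the 8. This gene, TRINITY_DN15363_c0_g1, had 4.49, 3.71 and 4.95 TPM in brown husk, against 26.1, 13.6 and 24.3 TPM in white husk. The groups did not overlap, whereas those of the peroxisomal gene among the 8 did. Its log2 fold change was -2.01 ± 0.27 (SE).

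ATP-driven partners and regulators of small heat shock proteins were counted from lists of descriptions. Among all tested genes 2.17% fell and 3.83% rose, and these shares are the background for the counts of all lists below. Of 30 heat stress transcription factors 1 fell and none rose, or 3.33%. This single call does not set the list apart from that background. The gene that fell was HSF30 (TRINITY_DN14757_c0_g4), which in tomato is HSFA2, a factor that sustains heat shock gene expression. It had 0.95 ± 0.173 TPM in brown and 8.13 ± 1.86 TPM in white husk (SD, n = 3 each, limma adjusted p = 0.00833). Of 3 ClpB disaggregases the cytosolic ClpB1 (TRINITY_DN3290_c0_g1), which pulls proteins out of aggregates, fell to 3.5 ± 1.52 TPM in brown, against 20.9 ± 2.28 TPM in white husk (limma adjusted p = 0.00533). Both calls held in every alternative fit. Of 3 heat response genes outside the chaperones multiprotein-bridging factor 1c (TRINITY_DN14190_c0_g4), a coactivator needed for thermotolerance in Arabidopsis, fell to 34.5 ± 9.05 TPM in brown, against 106 ± 42.1 TPM in white husk (limma adjusted p = 0.0477). Each omission of 1 library except that of white replicate 2 ended this call, at adjusted p of 0.104 to 0.158.

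Of 33 HSP70 chaperones 3 fell and 1 rose. A gene named mediator subunit 37c (TRINITY_DN16009_c2_g1), an HSP70 in Arabidopsis, fell to 16.3 ± 2.05 TPM in brown, against 155 ± 77.5 TPM in white husk (limma adjusted p = 0.00575). Its assembled length was only 525 bases. Outside the rule for naming, TRINITY_DN16009_c0_g1 and TRINITY_DN16009_c1_g1 of the same list had log2 fold changes of 0.89 and -0.73. Neither was past the threshold. The stromal HSP70 of chloroplasts (TRINITY_DN15457_c0_g6) fell to 20.7 ± 1.29 TPM in brown, against 36.2 ± 6.43 TPM in white husk (limma adjusted p = 0.0421), a call ended by each omission of 1 library except white replicate 2, at adjusted p of 0.0962 to 0.161. The remaining HSP70 that fell, outside the rule for naming, is heat shock 70 kDa protein 8 (TRINITY_DN12672_c0_g4), with 5.84 ± 0.38 TPM in brown and 12.1 ± 2.17 TPM in white husk. The luminal-binding protein (TRINITY_DN14796_c0_g3), the HSP70 of the endoplasmic reticulum, rose to 199 ± 31.1 TPM in brown, against 80.6 ± 14.2 TPM in white husk (limma adjusted p = 0.0106), a call lost without brown replicate 3 (adjusted p = 0.0529).

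Of 84 DnaJ cochaperones 5 rose and 6 fell. Of these DnaJ homolog B6 (TRINITY_DN12193_c0_g1) had 25 ± 2.96 TPM in brown and 132 ± 5.72 TPM in white husk (limma adjusted p = 0.000313), and a further B6-like gene (TRINITY_DN15028_c0_g2) had 97.9 ± 12.9 TPM in brown and 275 ± 2.89 TPM in white husk. DnaJ protein homolog 2-like (TRINITY_DN13186_c0_g5) rose to 132 ± 8.77 TPM in brown, against 74.2 ± 5.34 TPM in white husk (limma adjusted p = 0.0133), but was not past the threshold with TMM factors (adjusted p = 0.0927) or without brown replicate 1, 2 or 3 or white replicate 3 (0.0509 to 0.0732). Picked out after their values were seen, 2 genes described as the chloroplastic cochaperone dnaJ 20 were lower. TRINITY_DN10459_c0_g1 had 10 ± 2.3 TPM in brown and 22.8 ± 1.46 TPM in white husk. TRINITY_DN10459_c0_g2 had 15.8 ± 2.16 TPM in brown and 53.5 ± 19.3 TPM in white husk. They are assembled at 350 and 325 bases in 1 cluster and can be parts, copies or alleles of a single locus. Outside the rule for naming, TRINITY_DN10459_c1_g1 of the same list had a log2 fold change of -0.38 and was not past the threshold. The other DnaJ genes that rose were P58IPK (TRINITY_DN14384_c1_g9) and ERDJ3B-like (TRINITY_DN14149_c2_g3), both cochaperones of the endoplasmic reticulum in Arabidopsis, a gene like slr0093 (TRINITY_DN14221_c0_g3) and a subfamily C member 17-like gene (TRINITY_DN12377_c0_g1). Of 12 HSP90 chaperones none was past the threshold, the most abundant, heat shock cognate protein 80-like (TRINITY_DN12532_c0_g1), having 212 ± 23.4 TPM in brown and 263 ± 107 TPM in white husk. Of 19 cochaperones of HSP70 and HSP90 1 rose, or 5.26%. It was a BAG2-like gene (TRINITY_DN14325_c0_g1) at 2.97 ± 0.807 TPM in brown husk and at 0.32, 0.35 and 0 TPM in the white libraries. Its call was ended by each omission of 1 library except white replicate 2, at limma adjusted p of 0.0506 to 0.106.

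**Figure D4:**
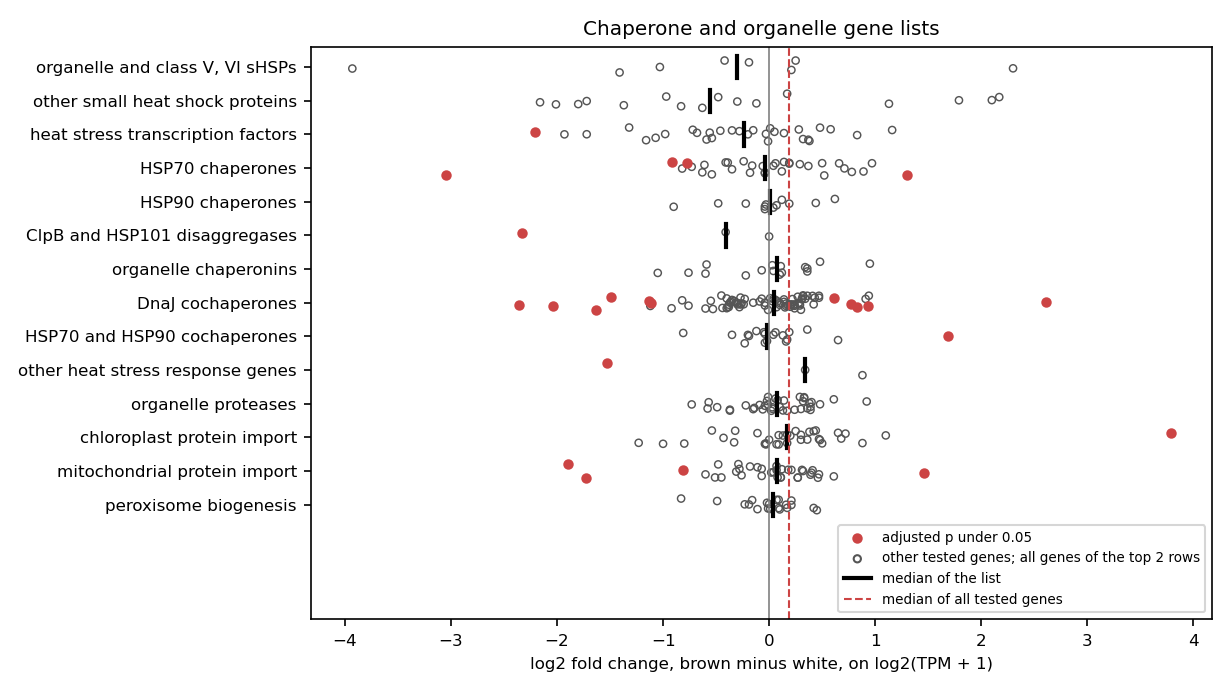
Log2 fold changes (x axis, brown minus white, from log2 of TPM + 1) of the tested genes of each list (rows), filled where the adjusted p is under 0.05, except in the top 2 rows, whose genes are drawn unfilled; thick bars mark list medians and the dashed line the median of all tested genes at 0.19. The medians of the 8 organelle and class V and VI genes (-0.30) and of the other small heat shock proteins (-0.55) lie left of the line. Those of the organelle import, protease, chaperonin and peroxisome biogenesis lists lie between 0.04 and 0.17. The photosystem and seed storage lists are not drawn.

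Other protein-handling genes of the same organelles were counted as well. None of 16 organelle chaperonins, 38 organelle proteases or 20 peroxisome biogenesis genes was past the threshold, and their medians were 0.07, 0.07 and 0.04. The highest of each were a chloroplast 20 kDa chaperonin (TRINITY_DN11590_c0_g1) at 125 ± 23.0 TPM in brown and 120 ± 11.9 TPM in white husk, a plastid ClpA homolog (TRINITY_DN14960_c0_g1) at 142 ± 6.82 and 116 ± 23.4 TPM in brown and white husk, and a peroxisomal membrane protein 11C-like gene (TRINITY_DN13937_c1_g1) at 282 ± 9.44 and 262 ± 23.1 TPM in brown and white husk (SD, n = 3 each). Of 35 chloroplast import genes 1 rose, or 2.86%. It was a TIC 56-like gene (TRINITY_DN16348_c0_g1) with 11.5, 12.1 and 15.1 TPM in brown husk and listed at 0 in the white libraries. Of 36 mitochondrial import genes 3 fell and 1 rose, or 11.1%. All 3 that fell are TOM9-2-like receptor subunits (TRINITY_DN10158_c0_g1, TRINITY_DN8279_c0_g1 and TRINITY_DN10158_c1_g1), and the last of these, with 7.1 ± 2.24 TPM in brown and 29.1 ± 7.7 TPM in white husk (limma adjusted p = 0.00938), was the one whose call held in every alternative fit. The gene that rose, outside the rule for naming, is an inner membrane translocase subunit (TRINITY_DN13977_c0_g4) with 6.46 ± 1.39 TPM in brown and 1.69 ± 0.3 TPM in white husk.

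Small heat shock proteins are also abundant in maturing seeds, and kernel markers were therefore looked up. No listed gene was described as legumin, vicilin, 2S albumin or 11S globulin. The 4 genes found for seed storage and oil bodies, 2 oleosin-like and 2 basic 7S globulin-like, summed to 22.1, 31.5 and 37.7 TPM in brown husk, against 54.8, 38.9 and 42.7 TPM in white husk. In this list 2 genes fell, oleosin 1-like (TRINITY_DN17035_c0_g1) with 5.06 ± 1.48 TPM in brown and 12.2 ± 2.02 TPM in white husk, and a basic 7S globulin-like gene (TRINITY_DN15142_c6_g6) with 0.117 ± 0.0115 TPM in brown and 2.66 ± 0.0907 TPM in white husk. The other 7S globulin-like gene past the threshold (TRINITY_DN16800_c0_g1) rose, having 1.67, 19.07 and 13.75 TPM in brown husk and being listed at 0 in the white libraries. None of these calls held throughout. With 1 library left out the oleosin call was lost each time, at limma adjusted p of 0.0743 to 0.131. The call of TRINITY_DN15142_c6_g6 was lost without brown replicate 2 or 3 or white replicate 3, at 0.0644 to 0.077, and that of TRINITY_DN16800_c0_g1 without each library except brown replicate 1, at 0.0947 to 0.155. Every brown sum was below every white sum, as for the 8 genes. Most of each white sum came from the other oleosin-like gene (TRINITY_DN1532_c0_g1), outside the rule for naming. It was not past the threshold, at a log2 fold change of -1.12 (limma adjusted p = 0.0706). The part of such tissue in the result was not tested.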

How the data were processed

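The authors deposited TPM per assembled gene and library, with descriptions, GO terms and KEGG pathways. Gene identifiers carry Trinity's name. The submitters' processing notes list cutadapt and FastQC as tools, and the quantifier is not given in the sources used here. Depth is unknown. Columns were matched to samples by title. From TPM, log2(TPM + 1) was fitted with limma 3.58.1 (R 4.3.3, mean-variance trend, no covariates) over genes that reached 1 TPM in 3 or more libraries, adjusted by Benjamini-Hochberg. The fit was tested on simulated data, with changes placed only in genes that averaged above 5 TPM on the log2 scale. That test therefore does not cover changes in lower genes, several of the 8 among them. Alternatives were pseudocounts of 0.1 and 0.5, no filter, a 5 TPM filter, TMM factors computed on TPM, quantile normalization, array weights, no trend, a replicate block, both class VI genes summed, and leaving out each library. No set test was run. Genes named are the 8, the 2 most similar to each, and, per list of descriptions, up to 3 past the threshold by mean TPM, or the most abundant, and genes of a member's assembly cluster. Members and lists were chosen with earlier results of these data known. The 8 genes follow a list of identifiers, which leaves out 1 gene described as peroxisomal.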

Additional observations from a re-analysis of the deposited data

How the results depend on the processing

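Over all genes, 1450 were higher and 819 lower in brown husk. With the replicate number as a block these counts were 735 and 490, and with quantile normalization 1275 were lower. Leaving out 1 library gave 410 to 1255 higher and 259 to 1013 lower. Of the 8 genes 1 was past the threshold as higher, and none with a filter of 5 TPM, which kept 3 of them (limma). As lower, 1 was past it, but 2 with TMM factors, 3 with quantile normalization, 2 with array weights, and 1 to 2 with 1 library left out. Among the other small heat shock proteins, in fits added after seeing the data, none rose with a filter of 5 TPM and 1 with the block, and 3 fell without the trend or with the block, while leaving out 1 library gave 0 to 2 higher and 2 to 8 lower.

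Of 115 log2 fold changes of the 8 genes under alternatives, 103 kept their direction and side of the threshold, 5 moved past it and 7 changed sign. The 103 include, for each gene outside class VI, the fit with both class VI genes summed, which does not alter that gene's values. Sign changes touched genes whose groups overlapped. TRINITY_DN12902_c0_g13 had -0.04 with quantile normalization. TRINITY_DN11643_c0_g1 had -0.10 with quantile normalization, -0.31 with array weights and -0.32 to 0.64 with 1 library left out. TRINITY_DN10398_c0_g2 had -0.73 to 0.10 with 1 library left out. Of the genes named from lists, TRINITY_DN12532_c0_g1 had -0.58 to 0.05 and TRINITY_DN11590_c0_g1 -0.07 to 0.19 with 1 library left out, and with TMM factors TRINITY_DN11590_c0_g1 had -0.14 and TRINITY_DN13937_c1_g1 -0.08. The causes were not tested. Replicate numbers are not stated to pair libraries. Deviations of same-numbered libraries correlated at 0.0572, 0.0561 and 0.0109, each the highest for its library. All are small, and deviations taken within each variety are tied to one another. Whether libraries are paired cannot be told from them. The block changed no call among the 8 genes and ended those of 9 of 26 genes named from lists, the stromal HSP70 (TRINITY_DN15457_c0_g6, adjusted p = 0.0852), TRINITY_DN3737_c0_g1, the BAG2-like gene (TRINITY_DN14325_c0_g1), TRINITY_DN10158_c0_g1, TRINITY_DN8279_c0_g1, TRINITY_DN15242_c2_g4 and the 3 seed storage and oil body genes. Estimation of array weights stopped before full convergence. TPM keeps no depth, so the precision of the genes near 1 TPM cannot be given.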

Other observations

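The HSP20 domain also occurs in plant proteins that are not heat shock proteins, and these genes, grouped after their values were seen, gave no call. They were 9 in number, described as restricted TEV movement 2, which limits long-distance movement of a potyvirus in Arabidopsis, as increased DNA methylation proteins, which act in active DNA demethylation, as AT-rich interactive domain proteins, or as an alpha-crystallin domain protein. None rose and none fell by limma, 1 had an unadjusted p under 0.05, and their log2 fold changes ran from -0.38 to 0.58 with a median of 0.37, against 0.19 for all tested genes. The gene described as increased DNA methylation 3 (TRINITY_DN13272_c0_g5) had 6.14 ± 1.4 TPM in brown and 7.72 ± 0.579 TPM in white husk (SD, n = 3 each). This gene and the alpha-crystallin domain gene TRINITY_DN10322_c0_g1 are also counted among the 16 other small heat shock protein genes tested, by their descriptions.

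A pair of class I genes described from grapevine rather than walnut was seen almost only in brown replicate 1. TRINITY_DN12269_c0_g2 had 107, 0.83 and 0.8 TPM in brown replicates 1, 2 and 3, against 0.44, 1.59 and 1.3 TPM in white replicates 1, 2 and 3. TRINITY_DN8876_c0_g1 had 25.1 TPM in brown replicate 1 and was listed at 0 in the other 5 libraries. Brown replicate 1 was also the library in which the mitochondrial gene TRINITY_DN12902_c0_g13 stood out, at 4.66 TPM. The class IV gene (TRINITY_DN7605_c0_g1), of the endoplasmic reticulum, had 14.6, 3.17 and 8.72 TPM in brown husk, against 2.69, 2.31 and 3.95 TPM in white husk.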
